A study of Mus musculus with 4 samples.

Results

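Group 2 innate lymphoid cells (ILC2s) carry receptors for peptides released by neurons and other cells, and 8 genes of this kind were examined: the neuromedin U receptor Nmur1, the receptor Calcrl with its co-receptors Ramp1 and Ramp3, the peptide gene Calca, the vasoactive intestinal peptide receptors Vipr1 and Vipr2, and the melanocortin receptor Mc5r. They were taken by symbol from a list of neuropeptide and melanocortin receptor genes, co-receptors and the gene of calcitonin gene-related peptide (CGRP), and all 8 were found among the 55487 gene IDs of the count table. The cells were sorted mouse gut ILC2s, labelled as colon, kept in culture with IL-33, IL-25, IL-7 and IL-2. The Control group (n = 2) received no FK866, and the FK866 group (n = 2) was exposed to it over 16 h. This compound inhibits NAMPT, the enzyme that recycles nicotinamide into NAD+. Both groups shared the 4 cytokines, so every comparison is within activated cells. The mouse strain, age and number of animals, and any vehicle given to the controls, were not stated in the labels. What separates the replicates is not stated either, so the p-values rest on a spread between libraries that could be technical.

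Neuromedin U, a peptide of enteric neurons, acts on NMUR1, which couples to Gq and calcium and drives rapid cytokine release by ILC2s. CGRP binds a receptor made of CALCRL and RAMP1, while CALCRL with RAMP2 or RAMP3 is a receptor for adrenomedullin. These receptors, the VIP receptors and the melanocortin receptor MC5R couple to Gs and raise cAMP, and CGRP and VIP are known modulators of ILC2 cytokine release. ILC2s are also a known source of CGRP themselves.

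Of the 7 members with enough counts to test, Ramp3, Mc5r and Calcrl rose in FK866 libraries and Nmur1 fell, while Ramp1, Calca and Vipr2 did not pass the test (edgeR, quasi-likelihood F test, with p adjusted by Benjamini-Hochberg over all 19194 tested genes and called under 0.05). In all 13.2% of tested genes were called, 5.31% higher and 7.89% lower. Without any test, the FK866 and control libraries did not overlap for 6 of the 7, 4 above and 2 below, against 57.7% of all tested genes (28.4% above and 29.3% below). The median log2 fold change of the 7 was 1.03, and that of all tested genes 0.03. The members were chosen with earlier results of these data known, so these contrasts with all genes are descriptions of the set and not tests. Vipr1 had too few counts and was not tested.

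Library totals ranged from 27617750 to 37841233 counts. FK866 replicate 2 stood apart with 22461 gene IDs at 10 or more counts, against 17152 to 18667 in the others. The ILC2 label was checked on 16 genes. Gata3, the lineage-defining transcription factor, was between 699 and 1082 CPM (counts scaled by the library total and its TMM factor) and the IL-33 receptor gene Il1rl1 between 157 and 307 CPM, whereas Ptgdr2, which encodes CRTH2, was below 0.28 CPM in every library. Il22, a cytokine gene of ILC3s, was between 75.0 and 265 CPM. Of the T cell receptor complex genes, Cd3e and Cd3d were at or below 2.15 CPM, while Cd3g was between 14.4 and 15.4 CPM. Summed over each list of markers, T cell genes were at 20.5 to 21.6 CPM, B cell genes at 61.3 to 122, ILC3 and NK cell genes at 94.7 to 281, epithelial genes at 32.0 to 59.7 (mostly Epcam, at 25.1 to 54.1, and 5.31 to 6.97 without it, with Krt8 at 0 in all 4 libraries), stromal genes at 3.56 to 9.73, and mast cell and basophil genes at 0.19 to 2.15 CPM.

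The stretches upstream of 5 genes are shown: Ramp3, Ramp1, Calcrl and Calca, which belong to the CALCRL receptor system, and Nmur1, the called member that fell. They come from the RefSeq promoter table (GRCm38.p6, the mm10 assembly), which held 7 of the 8 members, and are cut back to bases outside every annotated GENCODE M21 exon of the gene. Each is on the strand of its gene and is written 5′ to 3′. The stretch for Nmur1 precedes its RefSeq start and lies between exons of the longer gene model.
Ramp3, chr11:6658283-6658520, plus strand: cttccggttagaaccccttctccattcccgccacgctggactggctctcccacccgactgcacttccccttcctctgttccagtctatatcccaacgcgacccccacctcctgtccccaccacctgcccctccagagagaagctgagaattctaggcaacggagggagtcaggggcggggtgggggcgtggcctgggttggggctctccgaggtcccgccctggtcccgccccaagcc
Ramp1, chr1:91179572-91179821, plus strand: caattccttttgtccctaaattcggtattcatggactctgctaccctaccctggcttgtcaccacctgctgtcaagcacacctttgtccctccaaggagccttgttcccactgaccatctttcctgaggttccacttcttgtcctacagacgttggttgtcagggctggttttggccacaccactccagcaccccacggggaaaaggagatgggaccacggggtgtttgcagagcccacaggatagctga
Calcrl, chr2:84425412-84425516, minus strand: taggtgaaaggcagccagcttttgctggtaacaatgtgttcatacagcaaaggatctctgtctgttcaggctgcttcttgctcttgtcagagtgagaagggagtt
Nmur1, chr1:86389362-86389611, minus strand: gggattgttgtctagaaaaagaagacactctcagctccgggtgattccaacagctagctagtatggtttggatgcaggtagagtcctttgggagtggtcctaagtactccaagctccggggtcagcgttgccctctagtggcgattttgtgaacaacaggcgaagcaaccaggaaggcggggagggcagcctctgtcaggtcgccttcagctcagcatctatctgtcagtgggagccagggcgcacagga
Calca, chr7:114636358-114636607, minus strand: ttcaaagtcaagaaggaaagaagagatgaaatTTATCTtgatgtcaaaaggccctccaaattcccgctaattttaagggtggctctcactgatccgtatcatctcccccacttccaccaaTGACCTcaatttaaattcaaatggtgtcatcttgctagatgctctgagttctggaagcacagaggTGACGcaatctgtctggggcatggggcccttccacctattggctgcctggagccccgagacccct
Capitals mark matches to the motifs searched on both strands: the CRE half-site TGACG bound by CREB, the AP-1 site TGANTCA, the FOXO site GTAAACA, the ROR half-site AGGTCA and the GATA site AGATAA. The complete CRE TGACGTCA, which contains the half-site, and the E-box CACGTG were also searched. In the 250 bases before the RefSeq start, Calca had a TGACG that begins 65 bases before the start, an AGGTCA on the opposite strand at 130 bases and an AGATAA on the opposite strand at 218 bases. Of 32851 such windows, 17.8% held TGACG, 14% AGGTCA, 9.99% AGATAA, 6.75% TGANTCA, 6.02% CACGTG, 3.17% GTAAACA and 1.55% TGACGTCA. The windows of Ramp3, Ramp1, Calcrl and Nmur1 held none of these letters. The window of Vipr1, which is not printed, also held a TGACG, on the opposite strand at 13 bases. The upstream stretch of Ramp3 is 66.0% G and C, and that of Ramp1 54.0%.

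Nmur1 (ENSMUSG00000026237, chromosome 1, 86386303 to 86426228, minus strand) is the receptor through which neuromedin U activates ILC2s. Its mean CPM was the highest of the members in either group, though in FK866 replicate 2 Calca was above it, at 429 CPM. Nmur1 stood at 764 and 741 CPM in control replicates 1 and 2 and at 314 and 352 CPM in FK866 replicates 1 and 2. Both FK866 libraries lay below both controls, and the members of each pair were close together. Nmur1 fell by 1.18 on the log2 scale (SE 0.12, adjusted p = 0.00147), a level 2.26-fold lower. Averaged over all libraries of both groups, its log2 CPM was higher than that of 98.6% of tested genes. Its ligand genes Nmu and Nms had at most 6 counts in any library, and Nmur2, the other neuromedin U receptor, had 6 and 18 counts in the controls and 0 in both FK866 libraries (chosen after their values were seen), too few to test.

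**Figure D1:**
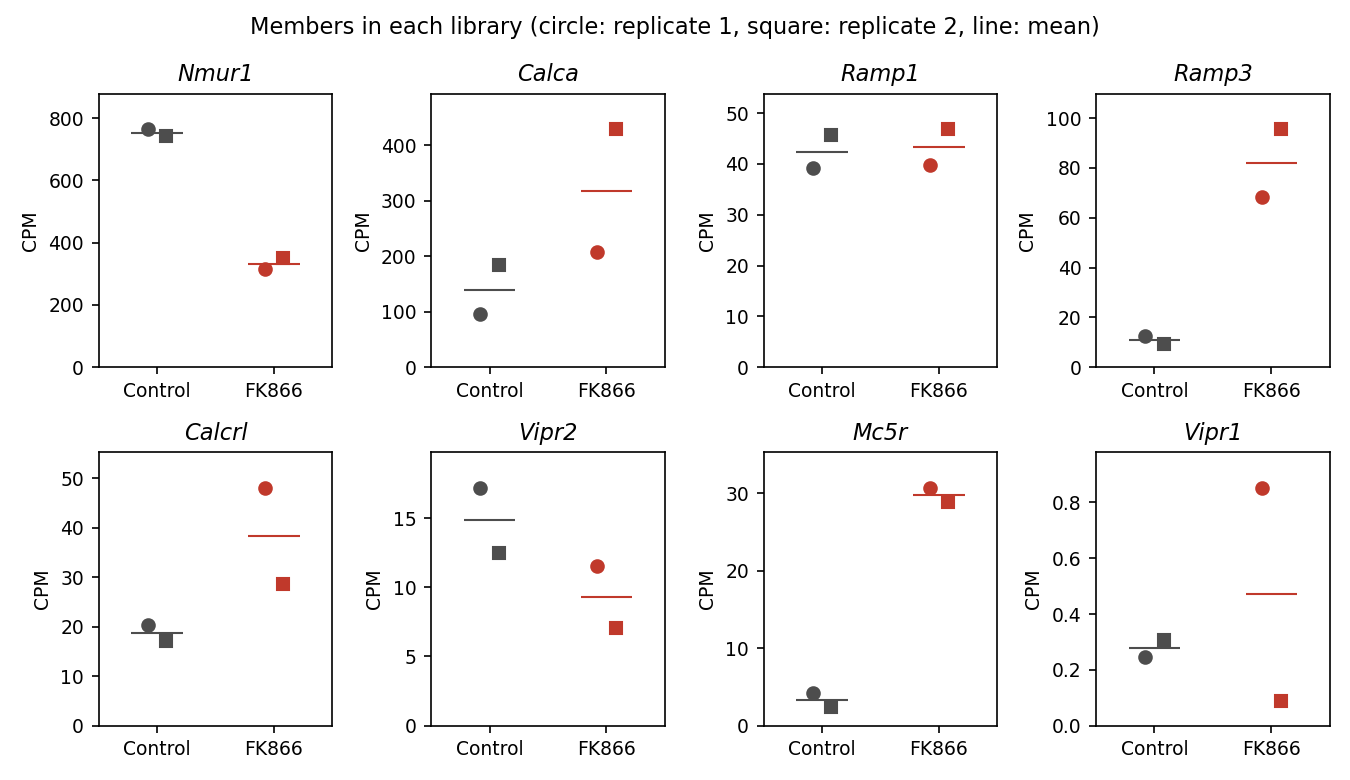
Expression of the 8 genes in each library, in CPM on a linear axis from 0, with circles for replicate 1, squares for replicate 2 and a line at the group mean. The FK866 libraries lie below the controls for Nmur1 (314 and 352 against 764 and 741 CPM) and above them for Ramp3 and Mc5r, while those of Ramp1 and Vipr1 overlap the controls.

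Ramp3 (ENSMUSG00000041046, chromosome 11, 6658521 to 6677475, plus strand) encodes a co-receptor that carries CALCRL to the cell surface and shapes which peptide it binds. It was at 12.6 and 9.17 CPM in control replicates 1 and 2, and at 68.4 and 95.6 CPM in FK866 replicates 1 and 2. The lowest FK866 library was far above the highest control, and the spread within either group was small beside the gap. Ramp3 rose 7.52-fold, a log2 fold change of 2.91 ± 0.23 (SE, adjusted p = 0.000678). Only 1.5% of tested genes had a larger absolute log2 fold change. Of the exon bases of Ramp3, 7.32% lie within exons of a gene on the other strand, whose reads cannot be told apart in libraries that do not mark strand.

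Ramp1 (ENSMUSG00000034353, chromosome 1, 91179822 to 91225196, plus strand) encodes the co-receptor that gives CALCRL its affinity for CGRP. It was at 39.1 and 45.8 CPM in the 2 controls, and at 39.8 and 46.8 CPM in FK866 libraries, so the groups overlapped. Its log2 fold change was 0.03 with a 95% interval from -0.36 to 0.42 (adjusted p = 0.939). A change the size of that of Ramp3 lies outside this interval.

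Calcrl (ENSMUSG00000059588, chromosome 2, 84330626 to 84425411, minus strand) encodes the seven-transmembrane subunit shared by these receptors. It was at 20.3 and 17.2 CPM in the 2 controls, and at 48.1 and 28.6 CPM in FK866 libraries. Both FK866 libraries were above both controls, but they differed from each other more than the controls did. Calcrl rose 2.05-fold (log2 1.03 ± 0.25, SE, adjusted p = 0.0311). The call was lost without FK866 replicate 1 (log2 0.61, adjusted p = 0.197) and without control replicate 2 (log2 0.89, adjusted p = 0.0828). Calcrl is also a gene of endothelial and myeloid cells. The summed level of 8 endothelial markers was 184 and 147 CPM in the 2 controls, and 228 and 194 CPM in FK866 libraries, nearly all of it Pecam1, which leukocytes share, and without Pecam1 the sum was 3.14 to 6.91 CPM, with Cdh5 at 0.46 CPM or less. The summed level of 8 myeloid markers was 5.15 and 7.06 CPM in the 2 controls, and 15 and 13.6 CPM in FK866 libraries, led by the lysosomal gene Cd68, which rose from 3.30 ± 0.24 to 8.76 ± 0.66 CPM (SD, n = 2, adjusted p = 0.0155). Without Cd68 the sum was 1.68 and 3.93 CPM against 5.78 and 5.35 CPM, with the macrophage gene Adgre1 at 0.17 to 3.45 CPM, Csf1r below 0.90 CPM and C1qa at 0 in 3 of 4 libraries. The part of such cells in the rise of Calcrl was not tested, and in bulk samples fewer cells of a type and less RNA per cell cannot be told apart.

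Levels of different genes can be compared per length, and on the scale of CPM per kb of exon the co-receptors changed places. Ramp1 was the more abundant in controls, at 12.9 and 15.1 against 9.13 and 6.65 CPM per kb for Ramp3. In FK866 replicates 1 and 2 Ramp3 was at 49.5 and 69.3 CPM per kb and Ramp1 at 13.2 and 15.5. Ramp3 thus made up 41.4% and 30.5% of the sum of both co-receptor transcripts in the controls and 79.0% and 81.7% in the FK866 libraries. The log2 ratio of Ramp3 to Ramp1 went from -0.85 ± 0.48 to 2.04 ± 0.18 (mean ± SD, n = 2), with no overlap. With 2 libraries against 2, an exact two-sided permutation test of this ratio gave p = 0.333, the smallest it can give. Calcrl, at 4.15 and 3.52 CPM per kb in controls and 9.85 and 5.87 in FK866 libraries, was below the sum of the co-receptors in all 4 libraries. Ramp2, the third co-receptor, had 10 and 4 counts in controls and 0 and 1 in FK866 libraries, and was not tested.

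**Figure D2:**
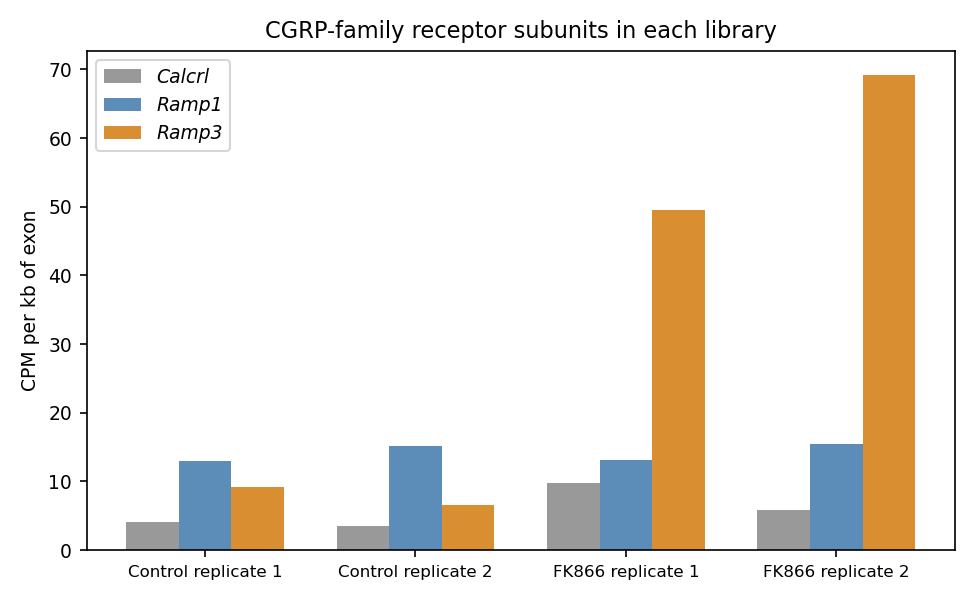
Transcript levels of the shared subunit Calcrl and the co-receptors Ramp1 and Ramp3 in each library, in CPM per kb of exon, 1 bar per gene and library. Ramp1 exceeds Ramp3 in both controls, and Ramp3 exceeds Ramp1 in both FK866 libraries (49.5 and 69.3 against 13.2 and 15.5 CPM per kb).

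Calca (ENSMUSG00000030669, chromosome 7, 114631478 to 114636357, minus strand) encodes both CGRP and, through alternative splicing, calcitonin, which gene-level counts do not separate. It was at 96.1 and 183 CPM in control replicates 1 and 2 and at 208 and 429 CPM in FK866 replicates 1 and 2. Both FK866 libraries were above both controls. In each group replicate 2 was above replicate 1, 1.91-fold in controls and 2.06-fold with FK866, and between libraries of the same number FK866 was above control 2.16-fold and 2.34-fold. The log2 fold change of 1.19 had a 95% interval from 0.38 to 2.00 and did not pass after adjustment (unadjusted p = 0.00934, adjusted p = 0.0619). The call was made without control replicate 2 (log2 1.71, adjusted p = 0.0213) or without FK866 replicate 1 (log2 1.62, adjusted p = 0.00586), and the value fell to 0.57 without FK866 replicate 2 and to 0.78 without control replicate 1. Neurons and enteroendocrine cells also make CGRP. The summed level of 8 markers of enteric neurons and glia was 4.05 to 7.20 CPM over the 4 libraries, and that of 8 enteroendocrine markers 0.85 to 1.88 CPM, with Neurod1 and Pyy at 0 in every library. Both sums are below the level of Calca in each library, but the part of such cells in the level of Calca was not tested. The related gene Calcb, which encodes the β form of CGRP, had at most 7 counts in a library.

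Vipr2 (ENSMUSG00000011171, chromosome 12, 116077726 to 116146261, plus strand), a receptor for VIP, was at 17.2 and 12.5 CPM in the 2 controls, and at 11.6 and 7.06 CPM in FK866 libraries. The FK866 libraries lay below both controls, by a margin smaller than the spread within either group. Its log2 fold change of -0.68 (95% interval from -1.35 to -0.0033) did not pass (unadjusted p = 0.0491, adjusted p = 0.177). It was -0.36 without FK866 replicate 2, -0.46 without control replicate 1 and -1.07 without FK866 replicate 1. Vipr1 (ENSMUSG00000032528, chromosome 9, 121642716 to 121672954, plus strand), the other VIP receptor, had 9 and 10 counts in controls and 23 and 3 in FK866 libraries, where 3 counts correspond to 0.0882 CPM in FK866 replicate 2. The FK866 libraries lay on either side of the controls, so no direction can be read. Vipr2 exceeded Vipr1 per length in all 4 libraries.

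Mc5r (ENSMUSG00000007480) encodes a Gs-coupled receptor for melanocortin peptides such as α-MSH. It was at 4.18 and 2.42 CPM in the 2 controls, and at 30.7 and 28.9 CPM in FK866 libraries, and the FK866 libraries were close to each other and far above both controls. Mc5r rose 8.99-fold (log2 3.17 ± 0.29, SE, adjusted p = 0.00100), the steepest rise among the members. Of the other melanocortin receptors, Mc1r and Mc4r had at most 6 counts in any library, and Mc3r had 22 counts in FK866 replicate 2 and 0 in the other 3 (chosen after their values were seen). Pomc, the precursor of melanocortin peptides, was at 1.09 ± 0.41 CPM in the 2 controls, and 1.49 ± 0.22 CPM in FK866 libraries (SD, n = 2, adjusted p = 0.666).

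**Figure D3:**
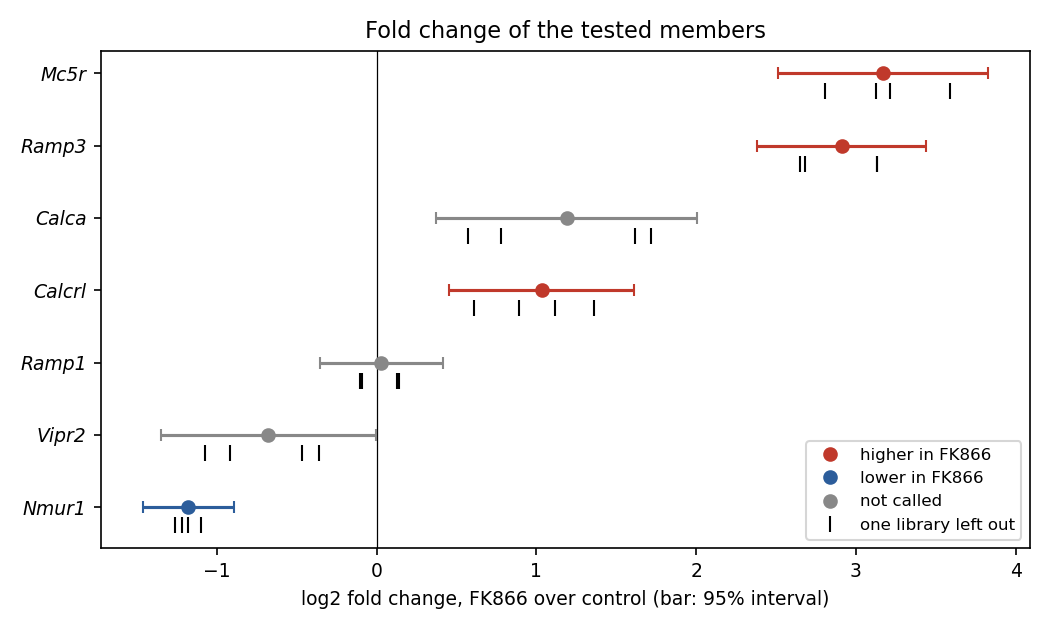
Log2 fold changes of the 7 tested members, FK866 over control, with 95% intervals, coloured by the call, and as vertical ticks the value with each library left out in turn. Mc5r (3.17) and Ramp3 (2.91) lie far to the right of 0 and Nmur1 (-1.18) to the left whichever library is left out, while the ticks of Ramp1 fall on both sides of 0.

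Ordered by CPM per kb, the controls ran Nmur1, Calca, Ramp1, Ramp3, Calcrl, Vipr2, Mc5r and Vipr1, and neighbours were separate except Calcrl and Vipr2, whose libraries overlapped. In FK866 libraries the order was Nmur1, Calca, Ramp3, Ramp1, Calcrl, Mc5r, Vipr2 and Vipr1. Nmur1 (185 and 208 CPM per kb) and Calca (124 and 255) overlapped there, as did Calcrl and Mc5r. The order rests on the length used: the exons of Calca cover 1684 bases, but its longest transcript has 994. For Nmur1 these lengths are 1695 and 1534. Between the groups, Ramp3 passed Ramp1 and Mc5r passed Vipr2 in this order.

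The genes nearest to each called member in pattern were sought among 8355 genes, by the distance between log2 CPM values centred over the 4 libraries, so that 0 is an identical pattern. Mc5r and Ramp3 were among the 3 nearest genes of each other, at a distance of 0.56. The other neighbours of Ramp3 were the pro-apoptotic BIM gene Bcl2l11 (0.55), and the α-arrestin gene Txnip (0.58), and those of Mc5r were Tent5a (0.29) and Casz1 (0.57). Nmur1 was nearest to Ifi35 (0.07), Galnt4 (0.08) and Myo1d (0.09), and Calcrl to the transcription factor gene Bhlhe40 (0.11), Ap3m2 (0.12) and Zfat (0.15). With 4 libraries these are descriptions.

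The peptides and partner receptors of these systems were mostly at the limit of detection. Of 22 such genes matched, 18 were below 1 CPM in every library and 5 could be tested. Of these, 0 were called by edgeR, where 0 also had an unadjusted p under 0.05. DESeq2 called 0 as well, but gave no adjusted p for Agrp and Calcr. Without control replicate 1, Adm was called (log2 3.68, adjusted p = 0.0472, against 1.74 and 0.215 with all libraries). The most abundant was Crcp, which encodes the CGRP receptor component protein, at 58.0 ± 10.2 and 52.0 ± 5.68 CPM (SD, n = 2, log2 -0.16, adjusted p = 0.615). Vip and Adm, the genes of the ligands of VIPR2 and of CALCRL with RAMP3, did not exceed 0.59 and 1.78 CPM (chosen after their values were seen).

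Among genes of cAMP signalling, the pathway downstream of Gs-coupled receptors, 10 of 43 tested were higher and 0 lower (23.3% called, where 13.2% of all tested genes were), with a median log2 fold change of 0.34. Of these, 3 were phosphodiesterases that degrade cAMP: Pde4b went from 32.0 and 49.2 CPM in controls to 92.9 and 107 CPM with FK866, Pde3b from 48.2 ± 2.89 to 95.9 ± 4.93 CPM, and Pde4d from 4.07 ± 0.67 to 14.5 ± 1.56 CPM (SD, n = 2). Crem, a CREB-family gene that is itself induced by cAMP, had the largest log2 fold change of the 10, at 1.85 ± 0.17 (SE, adjusted p = 0.00108). The transcription factor gene Creb1 rose by 0.91 and the salt-inducible kinase gene Sik1, another cAMP-induced gene, by 1.21 on the log2 scale (adjusted p = 0.00506 and 0.00867). The other 4, named to complete the count, were the CREB coactivator genes Crtc2, Crtc3 and Crebbp and the kinase gene Sik2. The call of Crebbp was lost with any library left out and with the trend removed (adjusted p from 0.0539 to 0.215), and that of Crtc2 without FK866 replicate 1 (0.0551). Of 8 adenylyl cyclase genes and 6 protein kinase A subunit genes tested, 0 were called. The shares depend on the filter. Under the stricter filter, which keeps more abundant genes, 13 of 31 genes of the list were higher and 1 lower, where 3414 of 9892 genes were called. The gene lists were chosen with earlier results of these data known, so their shares are descriptions. With the length and GC trend removed, 9 genes of the list were called higher and 4 lower, and without control replicate 2 the counts were 11 and 3.

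**Figure D4:**
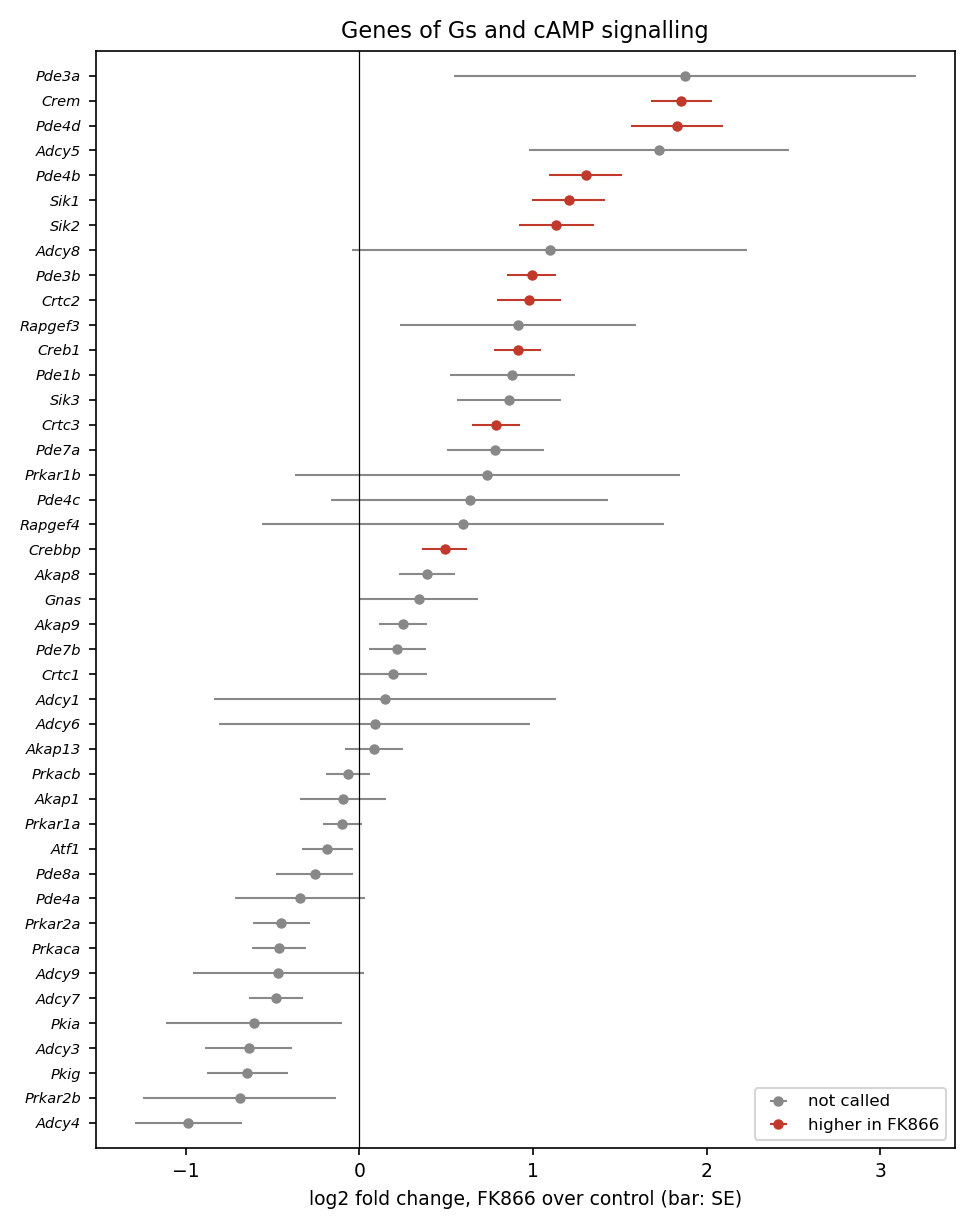
Log2 fold change of the 43 tested genes of Gs and cAMP signalling, FK866 over control, with SE bars, sorted by value, with the 10 called genes in colour. Called genes lie between 0.49 (Crebbp) and 1.85 (Crem), and the 33 others lie on both sides of 0.

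Genes of Gq and calcium signalling, the route used by NMUR1, moved both ways. Of 39 tested, 4 rose and 4 fell (20.5%, median log2 fold change -0.03). Once a length and GC trend was taken out, 5 were higher and 7 lower. Under the stricter filter 6 of 37 were higher and 5 lower, where 3414 of 9892 genes were called. The α subunit gene Gna11 went from 31.5 ± 1.57 to 55.2 ± 1.49 CPM, the calcineurin regulator gene Rcan1 from 25.1 ± 0.96 to 51.7 ± 9.19 CPM, and the calcium-dependent kinase gene Camk4 from 81.0 ± 10.5 to 162.8 ± 4.79 CPM (SD, n = 2). The calcium channel gene Orai3 fell by 1.34 and the IP3 receptor gene Itpr2 by 0.73 on the log2 scale. The call of Gna11 was lost without FK866 replicate 2 (adjusted p = 0.0593), and that of Itpr2 without FK866 replicate 1 (0.0554).

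Of 19 tested genes that switch off receptor signalling, 2 rose and 4 fell (31.6%, median -0.01). The genes of the G-protein GTPase activators Rgs2 and Rgs1 rose, Rgs2 from 6.42 ± 1.25 to 23.5 ± 4.35 CPM and Rgs1 from 139 ± 45.6 to 279 ± 43.3 CPM (SD, n = 2). The receptor kinase gene Grk6 fell by 0.84, and Rgs19, Rgs18 and Rgs14 by 0.53, 1.20 and 0.60 on the log2 scale. Without FK866 replicate 2, 2 genes of the list were called higher and 0 lower. The calls of Rgs19, Rgs18 and Rgs14 were also lost without FK866 replicate 1. With the length and GC trend removed, 3 genes were higher and 1 lower, and Rgs19 was at -0.22 (adjusted p = 0.273). Under the stricter filter 2 of 15 were higher and 4 lower, where 3414 of 9892 genes were called.

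Of 48 tested receptors for other transmitters and peptides, 2 rose and 2 fell (8.33%), and 70 of the 95 listed were below 1 CPM in every library. The GDNF receptor gene Ret went from 6.21 ± 0.02 to 13.1 ± 3.95 CPM, and the purinergic receptor genes P2ry1 and P2ry14 fell from 21.8 ± 5.52 to 9.81 ± 3.64 and from 9.04 ± 0.14 to 4.68 ± 0.09 CPM (SD, n = 2). Gabrr2, a GABA receptor subunit gene, had 4 counts in the 2 controls together and 104 in the FK866 libraries, a ratio per depth of 29.4 (95% exact interval 11.1 to 109.9, counting error only). This interval leaves out the spread between libraries, which was wide for Gabrr2 with FK866 (1.60 ± 1.32 CPM, SD, n = 2). The edgeR fit, which includes that spread, gave a log2 fold change of 4.70 ± 0.99 (SE). None of these 4 calls held without FK866 replicate 2, and P2ry1 shares 23.1% of its exon sequence with an opposite-strand gene.

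Among 23 tested genes that make, process or degrade peptides and transmitters, 2 rose and 2 fell (17.4%). Pcsk1, a protease that matures prohormones, went from 145 ± 38.7 to 71.5 ± 2.30 CPM (SD, n = 2). Ache, which encodes acetylcholinesterase, rose from 1.17 ± 0.01 to 4.88 ± 0.70 CPM, a call that was lost without FK866 replicate 1 (adjusted p = 0.0554). Npy had 0 counts in both controls and 42 in the FK866 libraries together, at least 8.13-fold higher than 3 counts per control library would give, and its call was lost with any library left out. Tph1, the serotonin-forming enzyme, and the enkephalin gene Penk were chosen after their values were seen. Tph1 was at 1310 and 1077 CPM in the 2 controls, and 1046 and 753 CPM in FK866 libraries (adjusted p = 0.160), and Penk at 28.7 and 8.65 against 82.8 and 37.0 CPM (adjusted p = 0.0674).

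Genes of the list of cytokines released by ILC2s were lower or not called, and a link to these receptors was not tested. Of 10 tested, 0 rose and 3 fell (30.0%, median log2 fold change -0.65). The median was -1.32 without FK866 replicate 1 and -0.17 without FK866 replicate 2. The type 2 cytokine genes Il13 and Il4 went from 139 ± 30.9 to 49.8 ± 21.5 and from 29.6 ± 3.91 to 17.3 ± 1.03 CPM, and Lif from 110 ± 21.4 to 19.4 ± 3.69 CPM (SD, n = 2). Under the stricter filter 0 of 9 genes of the list were higher and 4 lower, where 3414 of 9892 genes were called. The call of Il4 was lost without any 1 of FK866 replicate 1, FK866 replicate 2 and control replicate 2, at adjusted p-values from 0.0839 to 0.143. Il5 and Areg, named after their values were seen as further products of activated ILC2s, overlapped between the groups, with Il5 at 776 and 478 CPM in the 2 controls, and 756 and 361 CPM in FK866 libraries (adjusted p = 0.804) and Areg at 92.1 and 59.2 against 104 and 50.1 CPM (adjusted p = 0.977). Il5 shares 27.1% of its exon sequence with another gene.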

How the data were processed

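RNA was measured in 4 libraries (TRIzol RNA, SMART-Seq HT cDNA, Nextera XT, per the labels' protocols). The authors deposited raw counts per Ensembl gene. The submitters' processing notes name cutadapt 1.9, HISAT2 2.2.1 and the build mm10. The sources used here give no counting program, annotation release or strand setting.

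Symbols, exon lengths and coordinates came from GENCODE M21 (GRCm38), which named 55227 of 55487 IDs. Counts were fitted with edgeR 4.0.16 in R 4.3.3 (TMM, filterByExpr with a minimum count of 10 and total of 15, quasi-likelihood F test of treatment, two-sided). Adjusted p-values are Benjamini-Hochberg over 19194 genes, called under 0.05. CPM is the count over the TMM-scaled library total, and SE is the absolute log2 fold change over the square root of F. Intervals and floors on counts cover counting error only. On simulated data for this comparison over 19194 genes, 68 of 100 2-fold and 100 of 100 4-fold changes were recovered, and 18 of 186 calls were false. Only genes with a log2 CPM above 2 were changed there, far fewer genes changed than were called in the data, and libraries were drawn independently. The simulated rates therefore do not cover low-count genes or effects shared by same-numbered replicates. Replicate libraries differed beyond sampling noise (chi-square per degree of freedom 35.8 in controls and 19.0 with FK866), so none was merged in the fits. The ratio per depth of Gabrr2 alone used counts summed over replicates.

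The members and the gene lists (7 pathway lists, 11 marker lists) were chosen with earlier results of these data known. The text names all members, up to 6 called genes per pathway list by adjusted p, and the 3 genes nearest in pattern to each called member (mean log2 CPM of at least 3). Markers that define a cell type, and genes said to be named after their values were seen, stand outside this rule. Some genes that the rule would name are not reported here. Alternatives were DESeq2 1.42.0, library totals, upper-quartile factors, no filter, a stricter filter, removal of a length and GC trend, a replicate block, and leaving out each library.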

Additional observations from a re-analysis of the deposited data

How the results depend on the processing

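With 2 libraries per group, a library left out leaves a lone sample that is assumed to vary like the other group, and Vipr1 was tested only with no low-count filter (log2 0.74 ± 1.18, SE, adjusted p = 0.860). Nmur1, Ramp3 and Mc5r kept their direction and call under all 11 alternatives (leaving out 1 library, Nmur1 -1.26 to -1.10, Ramp3 2.65 to 3.13 and Mc5r 2.81 to 3.59 on the log2 scale). Over all genes, 2534 were called (1020 higher, 1514 lower), and leaving out 1 library gave 1252 (without FK866 replicate 1) to 2519. Without FK866 replicate 2 there were 1411. With the length and GC trend removed, 1629 were higher and 1414 lower and the median log2 fold change moved from 0.03 to 0.13, and under the stricter filter 1775 were higher and 1639 lower. Ramp1 turned to -0.021 with no filter, to -0.11 without control replicate 1 and to -0.09 without FK866 replicate 2 (range with 1 library left out -0.11 to 0.14), never called. Calcrl ranged from 0.61 to 1.36 with 1 library left out, with the call lost at 0.61 and 0.89. Calca passed with no filter (1.12, adjusted p = 1.16e-05), the stricter filter (1.29, adjusted p = 0.0283) and the trend removed (1.57, adjusted p = 0.0207), and ranged from 0.57 to 1.71 with 1 library left out. The cause of these changes was not tested.

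The replicate numbers are shared between the groups but no label says that they mark pairs. Deviations from the group means correlated at 0.37 across 9689 genes between same-numbered libraries. With a replicate block, 5256 genes were called, Calca passed (1.17, adjusted p = 2.82e-14) and so did Vipr2 (-0.70, adjusted p = 0.0109). The block changed no other call among the 7 tested members. Among the gene lists it called 13 higher and 6 lower for cAMP signalling, 5 and 12 for Gq and calcium, 2 and 5 for desensitisation, 3 and 5 for other receptors, 5 and 4 for synthesis and handling, 0 and 5 for cytokines, and Adm among the ligands (2.12, adjusted p = 0.0231).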

Other observations

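Among 15 tested genes of ILC2 identity, 1 rose and 4 fell, named here after their values were seen. Rora, which encodes the transcription factor RORα needed for ILC2 development, was at 337 and 375 CPM in control libraries and rose to 1185 and 1128 CPM with FK866 (log2 1.70 ± 0.12, SE, edgeR adjusted p = 0.000457). Id2, a transcriptional regulator shared by all innate lymphoid cells, was at 937 and 1250 CPM in controls and fell to 646 and 538 CPM (log2 -0.89, adjusted p = 0.0111). The costimulatory receptor gene Icos fell by 0.84, the IL-9 receptor gene Il9r by 0.60 and the arginase gene Arg1 by 1.33 on the log2 scale. Gata3 was not called (log2 -0.40, adjusted p = 0.0921). Il23r, a gene of the IL-23 receptor that is typical of ILC3s, was at 1.05 and 1.29 CPM in controls and at 6.08 and 3.62 CPM with FK866 (adjusted p = 0.0172).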
